A study of Mus musculus with 2 samples.

Results

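Intronic DNase I hypersensitive sites were described in very long genes of the adult mouse hippocampus. A gene was taken where it was autosomal, protein-coding and at least 500 kb long in GENCODE M21 (mm10), and a peak was a member where it lay inside such a gene, overlapped no annotated exon and was over 1000 bp from every annotated transcription start site (TSS). The genes numbered 218 of 20807 autosomal protein-coding genes. In replicate 1 their introns held 8242 of 144270 peaks (5.71%), and in replicate 2 they held 6612 of 124426 (5.31%).

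The series held 1 group of 2 biological replicates and no second condition. Each replicate was a pool of 2 biosamples, labelled layer of hippocampus with no layer named, from male B6CASTF1/J mice (C57BL/6J crossed with CAST/EiJ) of 8 to 10 months, supplied by The Jackson Laboratory. Both carried the same donor label, so the spread between them may be partly technical, and no comparison between conditions was possible. Bulk tissue mixes cell types, and a lower site in all cells cannot be told apart from a site open in fewer cells. As a check of the tissue, a promoter peak in both replicates was found at 10 of 10 excitatory neuron markers, 7 of 8 oligodendrocyte markers, 6 of 7 astrocyte markers, 4 of 8 inhibitory neuron markers, 1 of 7 microglia markers, 2 of 7 endothelial and mural markers and 0 of 8 markers of other organs. Sst, a marker of a class of interneurons, and Gfap, a marker of astrocytes, had no peak in that window.

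DNase I cuts chromatin where nucleosomes leave it open, so a peak of cuts away from a promoter marks a candidate enhancer, silencer or insulator, and a short protected stretch inside a peak (a footprint) marks a candidate site of a bound protein. Very long genes are common among the genes that neurons use for adhesion, synapse organisation and ion transport. Most of their length is intron, and their enhancers can lie within those introns. E-box sites are bound by basic helix-loop-helix factors such as those of the NEUROD family in neurons, CTCF holds chromatin loops together, and RFX, NFI, EGR and AP-1 factors are known regulators in brain cells.

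The 5 tallest members of those called in both replicates whose sequence is reported here are printed. They are single examples of the strongest intronic accessibility in these gene models, and 5 sites do not define a kind of sequence. Letters in capitals are exact matches, on either strand, to 1 of 16 motifs searched. Sequence is RefSeq GRCm38 (mm10, C57BL/6J), and each site had no further copy in the genome at 90% identity over 80% of its length.
Gm20388, chr8:121585441-121585720, plus strand: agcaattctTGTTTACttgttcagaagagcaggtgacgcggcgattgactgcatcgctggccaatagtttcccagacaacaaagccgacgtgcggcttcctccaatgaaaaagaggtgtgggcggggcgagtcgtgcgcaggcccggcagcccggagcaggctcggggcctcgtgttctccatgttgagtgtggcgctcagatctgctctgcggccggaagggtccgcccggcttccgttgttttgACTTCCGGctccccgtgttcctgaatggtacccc
Camta1, chr4:151141621-151141840, plus strand: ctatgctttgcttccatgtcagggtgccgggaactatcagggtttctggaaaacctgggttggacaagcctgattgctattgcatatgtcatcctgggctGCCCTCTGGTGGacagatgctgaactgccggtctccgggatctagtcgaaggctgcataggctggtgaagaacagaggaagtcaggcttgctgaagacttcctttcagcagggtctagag
Fgfr2, chr7:132551841-132552040, plus strand: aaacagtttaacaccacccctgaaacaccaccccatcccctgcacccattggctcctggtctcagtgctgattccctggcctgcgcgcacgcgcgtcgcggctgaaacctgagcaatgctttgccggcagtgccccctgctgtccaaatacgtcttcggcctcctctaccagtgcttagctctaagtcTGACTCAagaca
Gm20388, second site, chr8:121113381-121113600, plus strand: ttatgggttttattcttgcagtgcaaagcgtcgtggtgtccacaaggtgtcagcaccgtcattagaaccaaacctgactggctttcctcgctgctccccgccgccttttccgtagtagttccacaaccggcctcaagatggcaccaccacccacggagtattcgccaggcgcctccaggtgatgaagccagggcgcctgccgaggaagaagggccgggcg
Rasgef1b, chr5:99248561-99248760, plus strand: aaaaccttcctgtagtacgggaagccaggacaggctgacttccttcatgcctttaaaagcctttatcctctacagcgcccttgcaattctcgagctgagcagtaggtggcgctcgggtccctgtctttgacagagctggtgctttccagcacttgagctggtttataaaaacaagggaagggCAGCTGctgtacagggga

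The first site held an ETS match (CCGGAAGT) and a FOX match (TGTTTAC), the Camta1 site a CTCF match, the Fgfr2 site an AP-1 match (TGANTCA) and the Rasgef1b site an E-box (CAGCTG, called the E12 E-box here). The second Gm20388 site held none of the motifs. Heights, in the authors' units, were 12.5 and 9.99 in replicates 1 and 2 for the first site, 8.14 and 9.24 for Camta1, 6.23 and 6.37 for Fgfr2, 6.18 and 5.82 for the second Gm20388 site and 5.72 and 6.05 for Rasgef1b. Each exceeded 10 times the median member height, which was 0.532 and 0.529. Camta1 encodes a calmodulin-binding transcription activator, and its site lay in intron 9, 720.1 kb from the 5′ end of the gene. Rasgef1b encodes a guanine nucleotide exchange factor, and its site lay in intron 4, 480.4 kb from the 5′ end and 211.3 kb from the nearest start of a coding gene.

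The sites in Gm20388 and in Fgfr2 need a qualification. Gm20388 is a 4435 kb gene model that spans 71 other coding genes, and its tallest site lay 4.78 kb from the start of Map1lc3b, a gene of autophagy, while the second lay 2.68 kb from the start of Foxc2, a forkhead transcription factor. Fgfr2, a receptor of fibroblast growth factors, reaches 2961 kb in this annotation only through a single very long transcript that spans 29 other coding genes, and its site lay 24.5 kb from the start of Oat. In all, 6 of the 218 models held at least 5 other coding genes whole (Gm20388, Fgfr2, Gm37240 and Gm42416, Gm37013 and Gm37388 over the protocadherin clusters). These 6 composite models contributed 638 members (7.74%) in replicate 1 and 557 (8.42%) in replicate 2.

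A further 4 sites are printed as examples of other motifs found more often in members than in flanking sequence. Each is the tallest site that held the named motif among the members called in both replicates whose sequence is reported here.
Camta1, RFX, chr4:151140691-151140890, plus strand: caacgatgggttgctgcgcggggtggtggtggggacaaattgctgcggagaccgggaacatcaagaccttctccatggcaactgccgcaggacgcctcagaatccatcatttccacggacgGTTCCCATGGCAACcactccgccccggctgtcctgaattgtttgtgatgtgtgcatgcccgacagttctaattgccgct
Alk, NFI, chr17:72265521-72265720, plus strand: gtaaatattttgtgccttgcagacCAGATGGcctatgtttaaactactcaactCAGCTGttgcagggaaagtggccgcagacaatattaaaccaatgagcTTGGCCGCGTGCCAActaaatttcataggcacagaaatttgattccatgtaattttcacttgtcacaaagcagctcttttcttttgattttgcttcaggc
Ntm, EGR, chr9:29643341-29643540, plus strand: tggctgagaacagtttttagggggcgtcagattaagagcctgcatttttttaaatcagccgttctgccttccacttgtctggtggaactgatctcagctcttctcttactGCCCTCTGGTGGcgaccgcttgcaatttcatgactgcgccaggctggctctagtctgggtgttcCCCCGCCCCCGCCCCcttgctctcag
Gm20388, NEUROD E-box, chr8:121717981-121718200, plus strand: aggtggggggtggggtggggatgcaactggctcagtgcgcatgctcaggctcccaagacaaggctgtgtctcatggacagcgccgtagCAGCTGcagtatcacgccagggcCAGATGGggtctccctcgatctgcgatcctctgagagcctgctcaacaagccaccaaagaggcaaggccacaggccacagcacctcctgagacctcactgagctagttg

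The RFX example had heights of 5.62 and 4.46 and lay next to the CTCF site, in the same Camta1 intron. The NFI example, in intron 3 of Alk, a receptor tyrosine kinase, had heights of 0.525 and 0.672 and also held both E-boxes. The EGR example (GCGNGGGCG, which can overlap the SP/KLF string GGGGCGGGG) lay in intron 1 of Ntm, the adhesion protein neurotrimin, 319.7 kb from its 5′ end, with heights of 2.66 and 2.21, and it also held a CTCF match. The NEUROD E-box example (CAGATGG) had heights of 5.62 and 5.598 and lay in the composite model Gm20388, 11.5 kb from the start of Jph3.

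Members covered the introns of these genes thinly but without exception: every one of the 218 genes had at least 1 member in each replicate. The median gene had 32 members in replicate 1 and 26 in replicate 2. Over the 177.5 Mb that could hold a member, density was 4.64 per 100 kb in replicate 1 and 3.72 in replicate 2. In the same measure, intronic peaks of genes of 100 to 500 kb stood at 5.82 and 4.84, those of genes under 100 kb at 5.24 and 4.38, and intergenic peaks at 3.83 and 3.23. Within each replicate, members were thus sparser than intronic peaks of shorter genes and denser than intergenic peaks. Across the replicates, the members' higher value (4.64) was above the lower value of genes under 100 kb (4.38), and their lower value (3.72) was below the higher value of intergenic peaks (3.83). The members' range thus overlapped both of these classes, and with 2 samples no test was made.

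Density per gene ran from 0.194 to 14.2 per 100 kb in replicate 1 and from 0.420 to 12.1 in replicate 2. The order of genes was much the same in both: across the 218 genes Spearman's rank correlation was 0.943 and Pearson's r was 0.899, given as a description because genes share the same libraries. Replicate 1, with more peaks in all, was denser in 195 genes, replicate 2 was denser in 14, and 9 were equal.

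**Figure D1:**
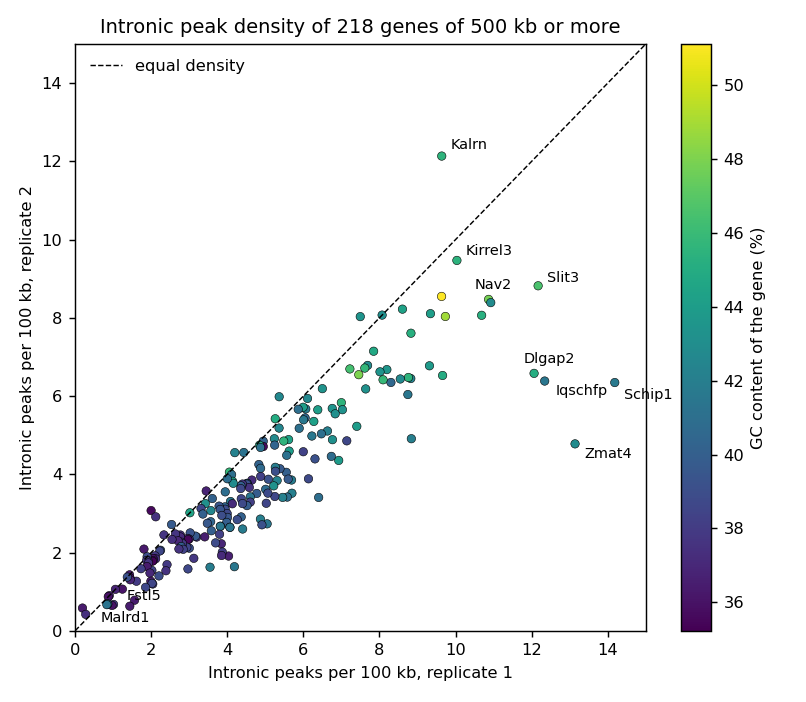
Intronic peaks per 100 kb of each of the 218 genes in replicate 1 (x axis) and replicate 2 (y axis), coloured by the GC content of the gene; the dashed line marks equal density. Most genes (195) lie below the line, Kalrn (9.64 and 12.1) lies above it, and the genes of low GC content gather at the lower left.

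By the mean of both replicates the densest gene was Kalrn, which encodes a guanine nucleotide exchange factor of dendritic spines (chr16:33969073-34573532). It had 54 members in replicate 1 and 68 in replicate 2, or 9.64 and 12.1 per 100 kb (mean 10.9 ± 1.77, SD, n = 2). Its first place rested on replicate 2, since Schip1 (14.2 per 100 kb), Zmat4 (13.1) and others stood above it in replicate 1. In replicate 2, Kalrn held a run of members between 3.41 and 11.6 kb from its 5′ end, with heights of 0.0904 to 0.536. Replicate 1 had no member in that stretch, and the rank of Kalrn without the run was not computed. Slit3, a secreted axon guidance ligand (chr11:35121224-35708507), had 69 and 50 members, or 12.2 and 8.82 per 100 kb. Kirrel3, an adhesion molecule of hippocampal synapses (chr9:34485894-35036716), had 53 and 50, or 10.0 and 9.47 per 100 kb, with the closest agreement among the densest genes.

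The others among the 10 densest were Schip1, Nav2 (neuron navigator 2), Pard3 (a cell polarity scaffold), St6galnac3 (a sialyltransferase), Iqschfp, Dlgap2 (a scaffold of the postsynaptic density) and the composite model Gm20388, with means between 9.09 and 10.3 per 100 kb. Schip1 and Iqschfp overlap each other on chromosome 3, so most of their members are the same peaks. Schip1 had 76 members in replicate 1 against 34 in replicate 2, Iqschfp 87 against 45 and Dlgap2 88 against 48, so the rank of these 3 genes rested on replicate 1.

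The sparsest gene by the same mean was Malrd1, best known from the intestine (chr2:15526479-16255555), with 2 members in replicate 1 and 3 in replicate 2, or 0.280 and 0.420 per 100 kb. Skint5, a gene of skin and thymus (chr4:113477891-113999503), had 1 and 3, or 0.194 and 0.581 per 100 kb, and so was the sparser of the pair in replicate 1. All its members were low, the tallest at 0.0984 and 0.0775. Neither gene had a promoter peak. The 3 overlapping protocadherin models followed, with 5 and 4 members each, but they included a peak of height 7.99 and 6.73, the third tallest of all members.

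Sparse introns were not limited to genes without an open promoter. Fstl5, a follistatin-like secreted protein, had 6 and 4 members and promoter peaks of 2.02 and 1.601. Galnt13 and Mgat4c, both enzymes of protein glycosylation, had 6 members in each replicate, with promoter peaks of 2.19 and 1.69 for Galnt13 and 1.35 and 1.04 for Mgat4c. Sntg1, a syntrophin, had 9 and 6 members and promoter peaks of 2.61 and 1.89. Cdh12, a classical cadherin, had 16 and 7 members over 1140 kb.

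The longest stretch without a peak of either replicate had a median of 86.8 kb over the genes and was at least 200 kb in 9 of them. It measured 372.2 kb in Malrd1, 348.2 kb in Galnt13, 307.2 kb in Skint5, 229.7 kb in Fstl5, 229.6 kb in Sgcz, 228.7 kb in Dock2, 215.5 kb in Foxp2, 206.4 kb in Mgat4c and 205.3 kb in Fhit.

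**Figure D2:**
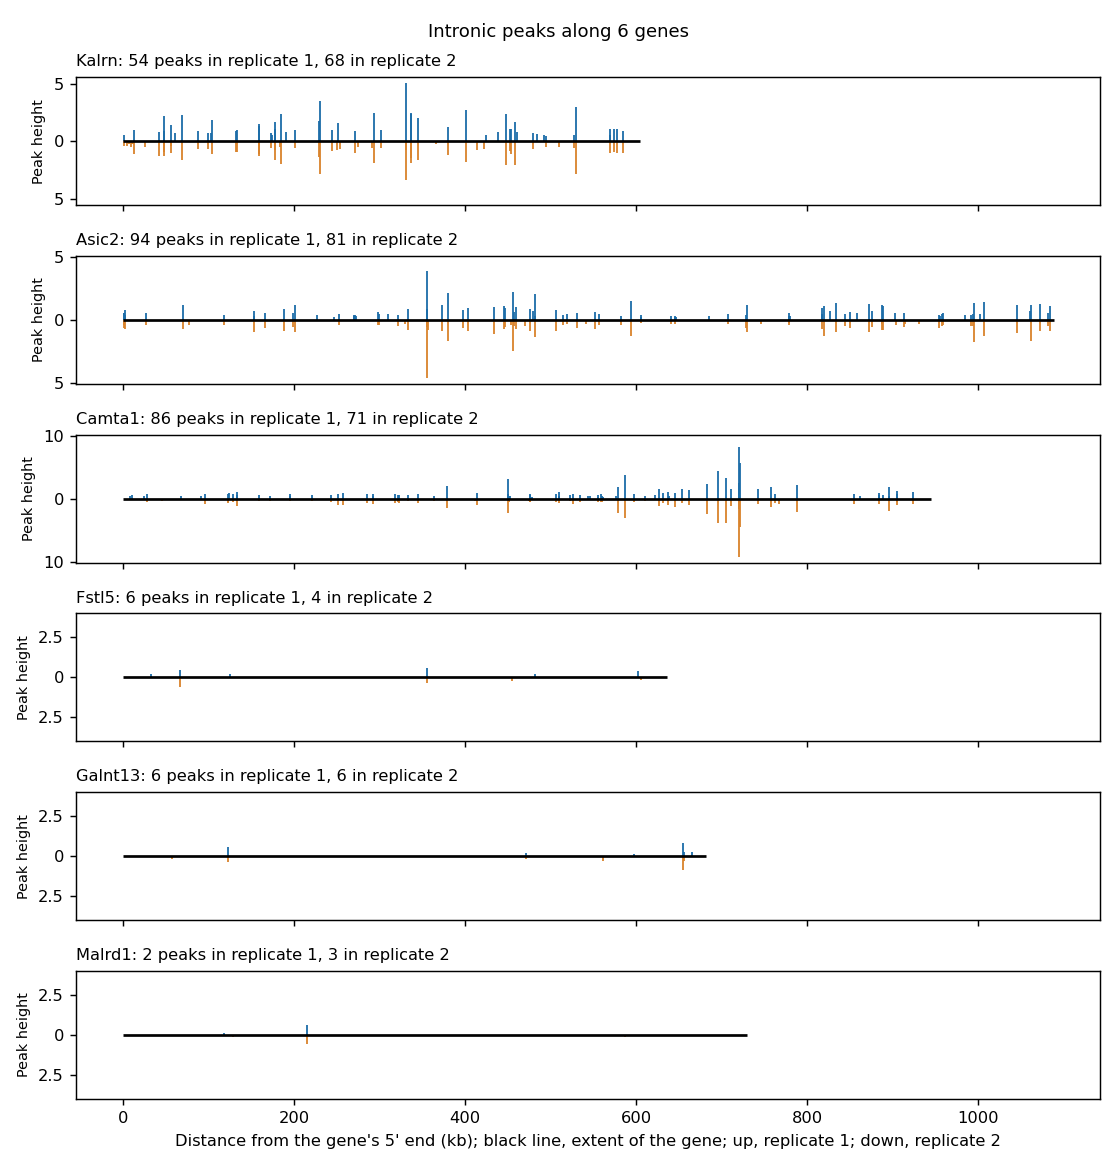
Members along 6 genes, by distance from the gene's 5′ end in kb (x axis) and height in the authors' units (y axis, up for replicate 1, down for replicate 2); the black line is the extent of the gene. Kalrn (54 and 68 members), Asic2 (94 and 81) and Camta1 (86 and 71) hold peaks along their whole length, while Fstl5 (6 and 4), Galnt13 (6 and 6) and Malrd1 (2 and 3) are nearly empty.

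By number rather than density, the composite models Gm20388 (346 and 307) and Fgfr2 (195 and 172) came first. Also among the 10 genes with the most members were Rbfox1, a neuronal splicing factor (100 and 77), Lsamp, a limbic adhesion protein (95 and 81), and Asic2, a proton-gated ion channel (94 and 81). Gm37240 (92 and 74), Dlg2, a scaffold of the postsynaptic density (89 and 72), Dab1, an adaptor of reelin signalling (85 and 75), and Csmd1 (84 and 76) were among them too. Length did not order density: Spearman's rank correlation between mean density and gene length was -0.14 over the 218 genes. The longest genes beside the composite models were Ptprd, a receptor tyrosine phosphatase (2271 kb, 60 and 51 members), Cntnap2, a neurexin relative (2245 kb, 45 and 41), and Lsamp (2197 kb), whose densities ranged from 1.92 to 4.40 per 100 kb.

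Density moved with base composition. Across genes, Spearman's rank correlation between density and the GC content of the gene was 0.759 in replicate 1 and 0.773 in replicate 2 (Pearson's r 0.725 and 0.776). When genes were ranked by GC content into 4 groups of 54 or 55, the group with the lowest GC content (35.2% to 38.2%) had a median density of 2.12 and 1.91 per 100 kb, the next 3.84 and 2.81, the third 4.98 and 3.87, and the group with the highest GC content (42.6% to 51.1%) 7.40 and 6.18. Every group stood above the one before it in both replicates. The part of base composition in the gene-to-gene differences, which could include its effect on sequencing or on cutting, was not tested.

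The order of the classes was different within ranges of GC content. GC content here was that of the whole gene, exons included, and not of its introns alone. The range of 44% or more has no upper limit, so genes in it need not be alike. A peak inside genes of different classes counted in each. In genes of 38% to 40% GC, density was 3.75 and 2.79 per 100 kb in genes of 500 kb or more, 2.86 and 2.40 in genes of 100 to 500 kb and 2.17 and 1.71 in genes under 100 kb. Below 38% GC the values were 2.46 and 2.06, 2.49 and 1.99, and 1.11 and 0.969. At 44% GC or more they were 7.87 and 6.77, 8.53 and 7.19, and 7.47 and 6.30. In each of the 5 ranges of GC content compared, members were denser than intronic peaks of genes under 100 kb in both replicates, the reverse of the order over all genes. Against genes of 100 to 500 kb the order was mixed, with members the sparser class at 44% GC or more in both replicates and below 38% in replicate 1.

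Of the 15 gene lists, that of phosphodiesterases, kinases and second messenger enzymes had the highest median density by the mean of both replicates. It had 12 genes here, with a median of 5.23 per 100 kb (5.77 in replicate 1 and 4.71 in replicate 2) against 3.95 over all 218 genes, and 9 of the 12 were above that median. Its densest members were Kalrn, Frmd4a (45 and 43 members), the kinase Mast4 (42 and 34) and Rgs6, a regulator of G protein signalling (34 and 29), and its sparsest was Dock2, with 16 members in each replicate. The 13 genes of synaptic scaffold and release had a median of 5.01, with 11 above the overall median. That median rested on replicate 1, at 6.01 there and 3.95 in replicate 2, where transcription factors (4.65), CUB and sushi, LRP and SORCS receptors (4.25) and cadherins (3.99) stood above it. Dlgap2 (12.1 and 6.58 per 100 kb), the ankyrins Ank3 (9.34 and 8.11) and Ank2 (8.75 and 6.04), and Magi1 (6.11 and 5.94) led that list, and the release genes Cadps2 (2.54 and 2.72) and Rims1 (2.97 and 1.58) ended it.

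The 14 transcription factors and chromatin regulators had a median of 4.65 per 100 kb, with 8 above the overall median. Camta1 had 9.73 and 8.03 per 100 kb, the nuclear receptor Rora 7.85 and 7.15, Auts2 8.19 and 6.68, and Zbtb20, a transcriptional repressor of hippocampal development, 7.14 and 4.86. Foxp2, a forkhead factor, was the lowest at 1.56 and 0.781, with 8 and 4 members. The 7 CUB and sushi, LRP and SORCS receptors had a median of 4.54, with Csmd2 at 7.46 and 6.55 and the low-density lipoprotein receptor relative Lrp1b at 1.89 and 1.64.

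Of the 14 ion channels and auxiliary subunits (median 4.26), 7 were above the overall median. Asic2 had 8.83 and 7.61 per 100 kb, Trpm3, a heat-sensitive cation channel, 8.30 and 6.35, the L-type calcium channel Cacna1c 7.22 and 6.69 and the potassium channel Kcnma1 7.40 and 5.23, while the potassium channel partner Kcnip4 had 3.12 and 1.85. The 14 receptor tyrosine phosphatases and kinases with their ligands (median 4.12) ran from Ptprn2 (9.66 and 6.53) to the neuregulin receptor Erbb4 (1.44 and 1.35). The 9 cadherins, protocadherins and catenins (median 4.05) ran from Cdh13 (8.09 and 6.42) to Cdh12 (1.44 and 0.629). The 18 immunoglobulin superfamily and axon guidance genes (median 4.03) ran from Slit3 to the contactin Cntn5 (1.88 and 1.80), and the 3 RNA-binding proteins Rbfox1 (6.63 and 5.11), Celf2 and Rbms3 were all above the overall median.

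At the other end, the 7 glutamate and GABA receptor genes had a median of 2.89 per 100 kb and 2 of the 7 above the overall median. Grid1, a delta glutamate receptor, had 7.50 and 8.03, while the metabotropic receptors Grm5 and Grm8 had 3.85 and 1.92, and 2.02 and 1.54. The 16 genes of the neurexin family and its partners had a median of 3.30, from Clstn2 (8.01 and 6.62) to Cntnap5b (1.73 and 1.59), and the 10 glycan and proteoglycan genes one of 3.19, with St6galnac3 (10.7 and 8.06) far above the rest. The list named genes best known outside the brain had the lowest median of all lists, 2.57. Of its 14 genes, 1 (Slc9a9, 5.69 and 3.85) was above the overall median. The name does not mean closed in this tissue, since 12 of the 14 promoters were open in each replicate. Among these was its sparsest gene, Sntg1 (1.01 and 0.674 per 100 kb), with promoter heights of 2.61 and 1.89. A promoter peak is not a measure of expression, and whether these genes are used in hippocampus was not tested. Genes of common fragile sites (3.46, 5 of 17) and the list named glia-associated long genes (3.46, 5 of 12) were also below the overall median. Among the densest genes of the latter list were Dscam and Ctnna2. These stand in the axon guidance and the cadherin and catenin lists too, so its median is not that of genes used by glia alone.

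**Figure D3:**
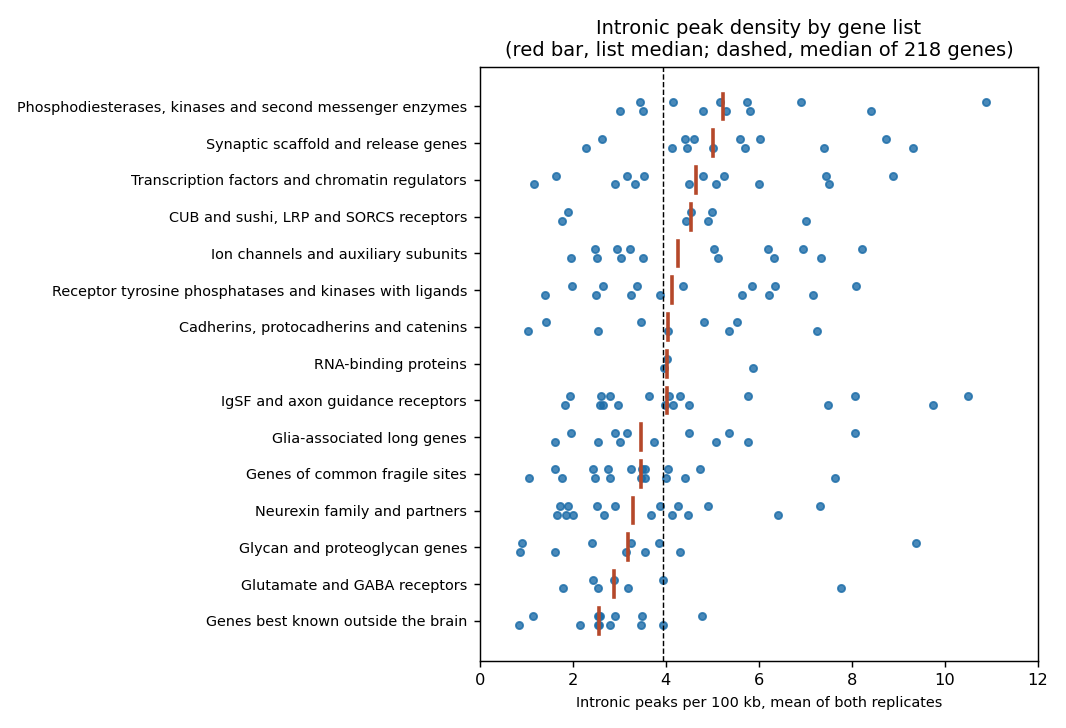
Intronic peaks per 100 kb (mean of both replicates, x axis) of each gene in the 15 lists, 1 point per gene; the red bar is the list median and the dashed line the median of all 218 genes (3.95). List medians run from 2.57 to 5.23, and the genes within every list but the RNA-binding proteins spread more widely than that.

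The lists at either end also differed in GC content: the median GC content was 41.8% for the signalling enzymes and 41.4% for the synaptic scaffolds, against 38.2% for the receptors, 38.01% for the neurexin family and 39.5% for genes best known outside the brain, with 40.1% over all 218. Glia-associated genes did not follow this order, with 40.9%. The part of GC content in the list differences was not tested, and some genes stand in more than 1 list.

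An open promoter went with denser introns. A promoter peak (a peak within 1000 bp of a TSS of the gene) was called in both replicates at 201 genes, whose median density was 4.51 in replicate 1 and 3.52 in replicate 2. The 15 genes with none in either replicate had medians of 2.84 and 2.08, and the ranges overlapped (mean density 0.350 to 5.29 against 0.809 to 10.9). Their median GC content was 39.0% against 40.1%. Among the 15 were Dock2, a gene of immune cells, Pkhd1, a gene of the kidney, and Malrd1, but also Sox5, a transcription factor with 48 and 45 members, and Arhgap15, a GTPase-activating protein with 38 and 29. The 15 also included the overlapping protocadherin models Gm37388, Gm37013 and Gm42416, each with the same 5 and 4 members. These count a single sparse locus repeatedly and so lower the medians of the 15, which were not computed without them.

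In most genes with a promoter peak, the single tallest member stood above it. The tallest member exceeded the promoter peak in 131 of 203 genes in replicate 1 and in 134 of 201 in replicate 2. This sets the highest of many members against the promoter peak, itself the tallest peak near any TSS of a coding transcript of the gene. The median promoter height was 1.76 and 1.47, well above the median member, but it is a median of such maxima and the other of single peaks. In Camta1 the promoter (13.8 and 9.19) was above the tallest member in replicate 1 and just below it in replicate 2, while in Asic2 the tallest member (3.88 and 4.62) stood above the promoter (1.88 and 1.55) in both.

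Along the gene, density was nearly level. Over 10 bins of equal length from the 5′ to the 3′ end of each gene it ranged from 4.35 to 5.20 per 100 kb in replicate 1 and from 3.45 to 4.07 in replicate 2. The last bin was the highest and bin 2 the lowest in both replicates, and the ratio of the highest to the lowest bin was 1.20 and 1.18.

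The exception was the start of the gene. At 1 to 2 kb from the 5′ end density was 32.0 and 29.8 per 100 kb, at 2 to 5 kb 13.3 and 12.8, and at 5 to 10 kb 4.27 and 4.75. At 10 to 20 kb it was 4.15 and 3.05, so the density at 5 to 10 kb was close to this in replicate 1 and still above it in replicate 2. The replicate 2 value at 5 to 10 kb rested on 49 peaks in 30 genes. Part of these, and so of the first 10 kb in replicate 2, belonged to the run in Kalrn. The first 2 bins rested on 44 and 41 peaks and on 77 and 74 peaks. Over the first 10 kb as a whole, density was 2.06 and 2.57 times that of the rest of the gene. Leaving out everything within 5000 bp of an annotated TSS brought this ratio to 0.917 and 1.26. Median heights in the first 2 bins were 0.528 and 0.504, and 0.440 and 0.426, near or below the median of all members.

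**Figure D4:**
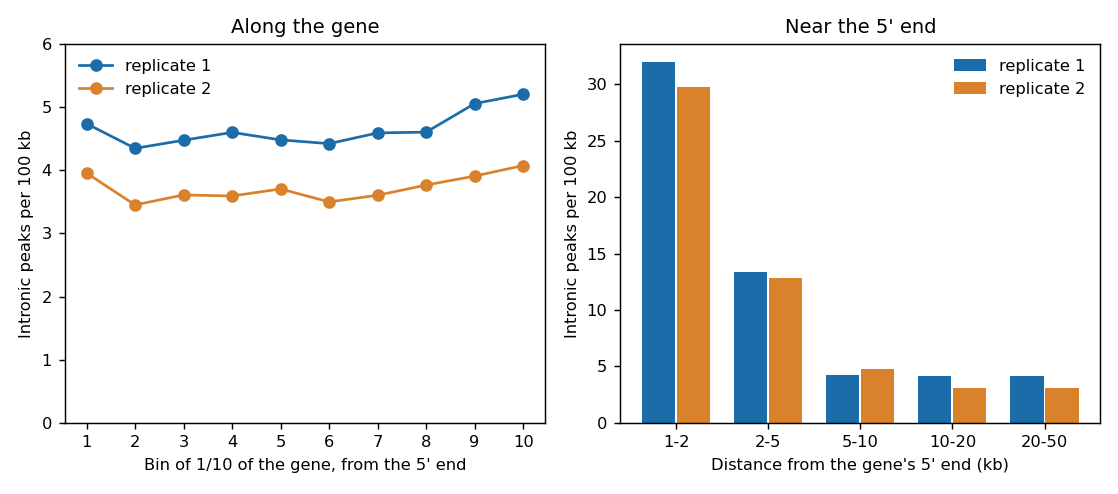
Intronic peaks per 100 kb in 10 equal bins of the gene from the 5′ end (left) and by distance from the 5′ end in kb (right), for each replicate. Density is nearly level along the gene (4.35 to 5.20 and 3.45 to 4.07), and rises to 32.0 and 29.8 in the narrow bin from 1 to 2 kb.

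By intron, taken from the longest protein-coding transcript, density was 4.84 and 3.97 per 100 kb in first introns, 4.68 and 3.70 in internal introns and 3.57 and 3.02 in last introns. Without the composite models, first and internal introns stood at 4.56 and 3.67 and at 4.59 and 3.61. Introns 1 to 6 each had between 4.59 and 4.94 in replicate 1 and between 3.46 and 4.02 in replicate 2. First introns had a median length of 118.1 kb, and the first was the longest intron in 85 genes, the second in 39 and the third in 32.

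Longer introns held more members at much the same density. The 197 introns of 200 kb or more, of 4623 introns in all, held 3440 members in replicate 1 and 2807 in replicate 2, at 4.71 and 3.84 per 100 kb, and introns of 100 to 200 kb were at 4.83 and 3.73. Introns under 10 kb were at 5.28 and 4.52, with 417 and 357 members in 2666 introns. No member was found in 2922 introns in replicate 1 and 3071 in replicate 2. The longest intron of each gene held 40.3% and 41.1% of the members.

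Among the longest single introns outside composite models, density differed widely. Intron 1 of Asic2 (996.0 kb) held 86 and 75 members, or 8.82 and 7.69 per 100 kb. Intron 1 of Kcnip4 (1015 kb), about as long, held 29 and 17, or 3.17 and 1.86, and intron 1 of Nrg1, a neuregulin (915.3 kb), 31 and 23. In Lsamp, intron 1 (801.3 kb) held 41 and 27 members and intron 2 (747.4 kb) 24 and 21. The last intron of Gpc5, a glypican (735.9 kb), held 13 and 8, and intron 2 of Lrrtm4, a synaptic adhesion protein (785.8 kb), 14 and 20.

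Distances between members varied widely. Among the 5424 members paired between replicates, the nearest other peak was at a median of 4.08 kb, 26.5% had another within 1 kb, and 70 had none within 50 kb. The most isolated was in intron 1 of the cadherin Cdh18 (chr15:22717761-22717980), 196.6 kb from any other peak, with heights of 0.637 and 0.284. The next were in intron 4 of Erbb4 (123.1 kb; 0.263 and 0.258), intron 3 of Edil3, an integrin ligand (115.6 kb; 0.683 and 0.659), and introns 1 and 2 of Cntnap2, 115.5 kb from each other. The first 3 of these held a NEUROD E-box.

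Taken over all genes, members were lower than intronic peaks of shorter genes. Their median height was 0.532 in replicate 1 and 0.529 in replicate 2, against 0.623 and 0.607 in genes of 100 to 500 kb and 0.689 and 0.678 in genes under 100 kb, and close to the 0.525 and 0.536 of intergenic peaks. The gaps to the shorter genes exceeded the difference between replicates in each class. A height of 2 or more was reached by 4.56% and 3.95% of members, 8.57% and 8.37% of intronic peaks of genes under 100 kb and 7.07% and 7.53% of intergenic peaks. Height also moved with GC content. At under 38% GC the median member had a height of 0.427 and 0.404, and at 44% or more 0.669 and 0.646. Genes under 100 kb had 0.387 and 0.375, and 0.768 and 0.755. Members were thus lower than this class in both replicates at 44% or more, and in no other range. At 38% to 40% both classes stood at 0.446 and 0.452. Below 38% and at 40% to 42% members were the higher, and at 42% to 44% the replicates differed in order. Against genes of 100 to 500 kb, members were lower in each of the 5 ranges in both replicates.

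The tallest members outside composite models, after Camta1 and Rasgef1b, were in intron 5 of Lrrc4c, a netrin-G ligand of synapses (chr2:97466221-97466440; 5.46 and 5.93), intron 19 of Trpm3 (chr19:22916661-22916940; 5.34 and 5.75) and intron 1 of Fam155a, a subunit of the sodium leak channel (chr8:9233441-9233600; 5.27 and 5.24). In these 3 sites the replicates differed by less than 10% of the height. The 40 tallest members had no further copy in the genome.

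Most members were found again in the other replicate. Of the members of replicate 1, 66.7% (95% Wilson interval 65.6% to 67.7%) overlapped a peak of replicate 2, and of those of replicate 2, 83.3% (82.4% to 84.2%) overlapped a peak of replicate 1. The shares over all peaks were 72.3% and 84.1%, so members of replicate 1 were shared less often and those of replicate 2 about as often as the background. The intervals cover counting error only. With the same number of peaks taken in each replicate, the tallest 124426, the shares were 74.2% and 78.3%.

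Sharing rose with height. Under a height of 0.4, 36.2% and 62.0% of members were shared, from 0.4 to 0.8 69.2% and 88.5%, from 0.8 to 1.6 96.8% and 99.6%, and above that 99.8% and 100%. In each range but the highest, members were shared more often than intronic peaks of genes under 100 kb, which had 29.8% and 49.7% in the lowest range and 60.3% and 82.0% in the next. In these 2 ranges they were shared less often than intergenic peaks, which had 40.4% and 63.0%, and 77.1% and 89.7%. Unshared members had a median height of 0.354 and 0.329 against 0.683 and 0.588 for shared ones. Of the 2748 unshared members of replicate 1, 312 (11.4%) touched a base with a false discovery rate of 0.05 or less in the deposited file of replicate 2, and of the 1102 of replicate 2, 234 (21.2%) touched such a base in replicate 1. In the other 3 classes the shares were near these, from 11.98% to 12.9% for unshared peaks of replicate 1 and from 18.02% to 19.5% for those of replicate 2.

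The tallest members called in 1 replicate alone were modest. In replicate 1 they were in Opcml, an opioid-binding adhesion protein (1.65), Fgfr2 (1.31), Iqschfp and Schip1 (1.25), Rbfox1 (1.14) and Zbtb20 (1.08). In replicate 2 they were in Pde4b, a cyclic AMP phosphodiesterase (1.25), Nav2 (0.904), Camta1 (0.891), Kalrn (0.807) and Csmd3 (0.801).

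For members paired between replicates, heights were close. After removal of the median log2 ratio of all pairs (-0.19), 286 of the 5424 pairs were over 1.5-fold higher in replicate 2 and 225 were over 1.5-fold lower, or 9.42% in all. The background over all 101938 pairs was 8.99% (5.53% higher and 3.45% lower). Spearman's rank correlation of heights was 0.907 for members. The share was near the background and says nothing particular of the members.

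The number of members that each replicate contributed varied from gene to gene. Of 201 genes with at least 20 members in both replicates together, 11 (5.47%) drew 35% or less of them from replicate 2, near the 4.86% among 1050 autosomal genes of any length. Toward replicate 2, 3 genes (1.49%) drew 55% or more from it, against 5.62% of the 1050. Zmat4, a zinc finger gene (chr8:23636019-24156585), had 66 members in replicate 1 and 24 in replicate 2. Of its 66, 44 were unshared, with a median height of 0.174 against 0.850 for the shared ones, and its 21 pairs had a median scaled log2 ratio of -0.06. Schip1 had the same form, with 45 of 76 unshared at a median of 0.203 and a paired log2 ratio of 0.01. Mecom, a zinc finger transcription factor (23 and 9), and Cdh12 (16 and 7) were also among the genes most tilted to replicate 1.

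In Zmat4 and Schip1 the excess of replicate 1 thus lay in low peaks, while the peaks found in both had like heights. The excess was also local. Intron 3 of Zmat4 (104.6 kb) held 35 of its 66 members in replicate 1 and 1 of 24 in replicate 2. Intron 1 of Schip1 (429.6 kb) held 25 and 21 members, so most of the excess lay outside it. In Mecom and Cdh12 the gap in height between unshared and shared members was smaller. Medians of unshared and shared members in replicate 1 were 0.249 and 0.348 in Mecom and 0.302 and 0.420 in Cdh12. The 8 pairs of Mecom had a median scaled log2 ratio of 0.20. Toward replicate 2 the most tilted genes were the kainate receptor Grik2 (13 and 20), Lrrtm4 (16 and 22), Kalrn (54 and 68), Mdga2, an inhibitor of synaptic adhesion (13 and 15), and Elmo1, a partner of Dock proteins (26 and 29). In Kalrn, 25 of the 68 members of replicate 2 were unshared, with a median height of 0.407.

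The NEUROD E-box (CAGATGG) was frequent in members. It was found in 1522 of 8242 windows of 200 bp at member centres in replicate 1 (18.5%) and in 1225 of 6612 in replicate 2 (18.5%), against 3.65% and 3.60% of windows 1000 bp to the side that touched no peak. The odds ratio was 5.98 and 6.09. In intronic peaks of genes under 100 kb the share was 15.5% and 15.1%, with flanks at 4.81% and 4.65%, and the odds ratio 3.64 and 3.63. In genes of 100 to 500 kb the share was 17.2% and 17.1%, and in intergenic peaks 16.8% and 16.6%. The members' share was the highest of the 4 classes in both replicates, and the replicates differed by less than the classes did.

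Against genes under 100 kb this order held in each of the 5 ranges of GC content in both replicates, and against genes of 100 to 500 kb it did not. Members of genes under 38% GC held the motif in 20.5% and 19.1% of windows, against 21.9% and 20.6% in genes of 100 to 500 kb and 17.96% and 17.7% in genes under 100 kb. At 44% GC or more the shares were 17.5% and 16.3%, 16.6% and 16.5%, and 15.3% and 14.8%. Members with the motif were slightly taller than those without (median 0.610 against 0.518 in replicate 1) and more often shared (71.2% against 65.6%). When pairs were ranked by mean height into 10 groups of 542 or 543, the share was 16.4% in the lowest group and 25.05% in the highest.

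CTCF showed the opposite order between classes. Its consensus, searched as a degenerate string on both strands, matched 221 member windows in replicate 1 (2.68%) and 211 in replicate 2 (3.19%), against 0.0514% and 0.0400% of flanks. The share was 5.76% and 6.85% in intronic peaks of genes under 100 kb, 3.41% and 4.01% in genes of 100 to 500 kb and 5.24% and 6.12% in intergenic peaks. Members were the lowest of the 4 classes in both replicates. They were below genes under 100 kb also at under 38% GC (2.11% and 2.52% against 3.88% and 4.42%) and at 44% GC or more (4.14% and 4.46% against 6.19% and 7.15%), but at 44% or more they were above genes of 100 to 500 kb (3.66% and 4.29%). The range of 44% or more held 1956 and 1682 members. The composite models Gm20388 (346 and 307) and Fgfr2 (195 and 172) were part of it, and its CTCF share was not computed without them. Members with a CTCF match were tall, with a median of 1.12 against 0.525 in replicate 1, and 90.5% of them were shared in replicate 1. The share with a match was 0.737% in the lowest of the 10 groups of pairs by height and 13.8% in the highest.

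**Figure D5:**
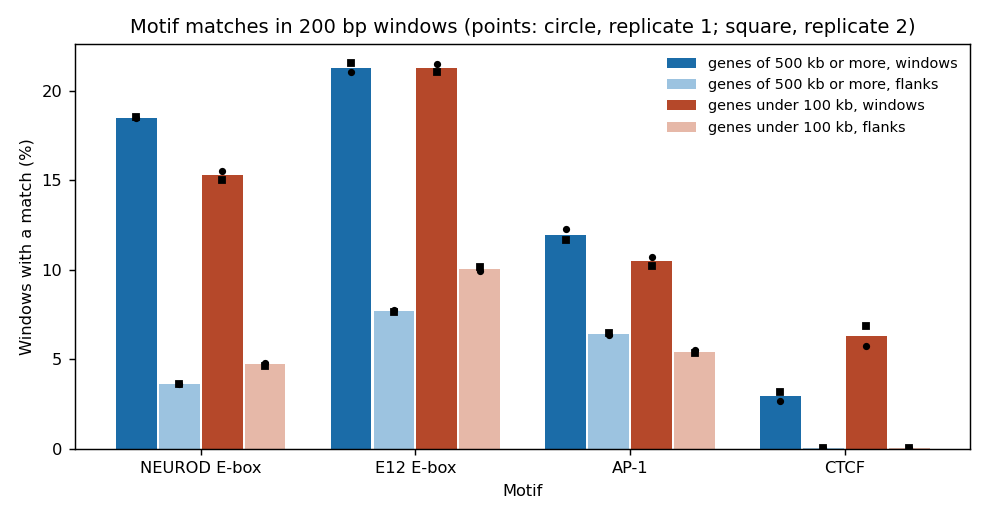
Percent of 200 bp windows with a match to 4 motifs, at the centres of intronic peaks and in flanks 1000 bp to the side, for genes of 500 kb or more and genes under 100 kb; bars are means of both replicates and points are the replicates. The NEUROD E-box is more frequent in peaks of long genes (18.5% against 15.5% and 15.1%) and CTCF less frequent (2.68% and 3.19% against 5.76% and 6.85%).

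The E12 E-box (CAGCTG) was found in 21.0% and 21.6% of member windows (odds ratio against flanks 3.16 and 3.32) and in 21.5% and 21.1% of those of genes under 100 kb, so the classes did not differ beyond the replicates. AP-1 (TGANTCA) was found in 12.3% and 11.6% of member windows (odds ratio 2.06 and 1.91) and in 10.7% and 10.2% of those of genes under 100 kb. RFX matches were few, 20 and 22 windows, and stood against 1 flank in each replicate. EGR matched 17 and 16 windows against 4 flanks and 1, and NFI 9 and 8 against 1 and 0. For these 3 motifs the flank counts are too low to give a usable odds ratio or an order among them.

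Of the 16 motifs, 11 had an odds ratio above 1.5 in each replicate, which for RFX, EGR, NFI and NRF1 rests on 4 or fewer flanks with a match. Beside those above these were CRE (TGACGTCA), ETS, SP/KLF and NRF1, each in under 1% of windows. The other 5, MEF2, SOX (CCATTGTT), the POU octamer (ATGCAAAT), ROR and FOX, were within 1.5-fold of the flanks in both replicates. A match is a string of letters and not a bound site, and windows near each other are not independent.

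In composition, member windows had a median GC content of 48.0% in both replicates, against means near 42% in their flanks and medians of 51.0% and 51.5% in intronic peaks of genes under 100 kb. Repeat-masked sequence made up 8.85% and 8.61% of member windows and 22.2% and 21.9% of the flanks. No CG was found in 11.2% and 10.2% of member windows.

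At least 1 deposited footprint lay wholly inside 76.0% of members in replicate 1 and 79.2% in replicate 2, with 1.77 and 1.91 footprints per member. Footprints that crossed the edge of a peak were not counted. In intronic peaks of genes under 100 kb the shares were 81.7% and 84.4%. At like height the order did not hold: between 0.4 and 0.8, 84.7% and 87.6% of members had a footprint against 82.2% and 85.2% in genes under 100 kb, and below 0.4, 45.1% and 50.4% against 44.4% and 47.5%. In replicate 1, members with a CTCF match had a footprint in 95.02% of cases and those with a NEUROD E-box in 81.5%, against 75.5% and 74.8% of members without.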

How the data were processed

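DNase-seq of mouse hippocampus was deposited for 2 replicates of 1 group. Per the labels the assembly was mm10; the aligner and the callers of peaks and footprints were not given in the sources used here. The authors deposited, per sample, 2 peak lists with a height per peak (unit: signal, scale not stated), intervals with a false discovery rate (a q-value, listed only up to 0.05) and footprints with the constant 0.01 (taken to be a threshold on a p-value or q-value). The longer peak lists were used. Depth is known only through the heights, whose values under 100 steps were all whole multiples of 1 step (0.00656 and 0.00646) within 0.1 step. The median peak of a whole list was 98 and 99 steps high.

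Genes, exons and start sites came from GENCODE M21 (comprehensive set). Density was counted per base outside exons and over 1000 bp from every TSS. Overlap of 1 bp counted as shared, and pairs were mutual best overlaps. Motif odds ratios add 0.5 to each cell. Copies were searched with blastn 2.17.0. Sequence is that of C57BL/6J, and any effect of CAST/EiJ variants on mapping was not tested.

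Named were the 10 densest, 10 sparsest and 10 most populated genes, the 5 longest, the 5 most unequal each way, the 4 densest and 2 sparsest of each list (some are given only within a range, and some genes that this rule takes are left out), the 10 tallest shared, 5 tallest unshared and 5 most isolated peaks. Sequences on chromosome 18 are not printed. Members, lists and motifs were chosen with earlier results of these data known. With no second condition there was nothing to test between conditions, so the text prints no p-value. The functions were tested on simulated sites in the 218 genes: a planted density ratio of 3 near the 5′ end was recovered as 2.84, and a planted shared percentage of 70.7 as 71.1. Python 3.11.15, numpy 2.4.6, pandas 2.3.3, samtools 1.23.1 and matplotlib 3.10.9 were used.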

Additional observations from a re-analysis of the deposited data

How the results depend on the processing

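No paired analysis was possible because the series held 1 group. With 2 replicates and heights on an unstated scale, differences between classes carry no test, and low peaks are limited by depth, since sharing fell with height. Of 77 alternative values, 51 stayed within the spread of the replicates or, for counts, within 1.5-fold, and 26 moved. The 51 include the values from leaving out either replicate. Except for counts, such values fall within that spread whatever the data, so they are no evidence of stability. Values below are means of both replicates. The shorter peak list gave 3737 members (main value 7427), a density of 2.11 per 100 kb (4.18), a median height of 0.812 (0.531), a height of 0.797 relative to genes under 100 kb (0.776), a ratio of the highest to the lowest of 10 bins along the gene of 1.30 (1.19), 21.9% of windows with a NEUROD E-box (18.5%), 4.80% with CTCF (2.94%) and 90.3% of members with a footprint (77.6%). Genes of 1000000 bp or more gave 2958 members, a height of 0.527, a bin ratio of 1.25 and 18.9% with a NEUROD E-box. A distance over 5000 bp from every TSS gave a height of 0.521, a density within 10 kb of the 5′ end relative to the rest of 1.09 (2.31), a bin ratio of 1.22 and 18.8% with a NEUROD E-box. Windows of 100 bp gave 13.6% with a NEUROD E-box, the ends of the longest transcript a bin ratio of 1.23, and heights with no scaling 13.6% of pairs beyond 1.5-fold (9.42%). 2 alternatives were chosen after seeing the data. Without composite models the height was 0.514, the relative height 0.752, the bin ratio 1.25 and the NEUROD E-box share 18.6%. The GENCODE basic set gave a height of 0.534, a density near the 5′ end relative to the rest of 2.78 and a bin ratio of 1.21; motifs and relative height were not run for it. Leaving out either replicate gave densities of 3.72 to 4.64 per 100 kb, and from 6 to 9 of the 15 lists above the median of all genes.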
